A study of Mus musculus with 12 samples.

Results

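The genes described here are 32 mouse genes of glycolysis and of the response to low oxygen. Their members in the data are the 155 chromatin regions (peaks), of 48443 in all, whose nearest protein-coding gene model within 100 kb is 1 of these genes. All 32 genes had at least 1 such peak, from 1 at Vhl, Ankrd37, Gpi1, Aldoa, Aldoc, Tpi1 and Pgam1 to 14 at Egln3. ATAC-seq was the assay, in which the transposase Tn5 cuts and tags open DNA. Naive CD4+ T cells sorted from the spleens of wild-type C57BL/6 mice were activated on plate-bound anti-CD3 and with anti-CD28 (1 µg/ml each). Induced regulatory T cells (iTreg) were grown with TGF-beta1 at 2 ng/ml as the only cytokine named. Th17n, Th17 cells of the non-pathogenic kind, received the same dose of TGF-beta1 and IL-6 at 25 ng/ml. Both lineages were kept for 68 hours with vehicle or with 100 µM DFMO, difluoromethylornithine, which inhibits the polyamine-making enzyme ornithine decarboxylase. The 4 groups were Th17n vehicle, Th17n DFMO, iTreg vehicle and iTreg DFMO, and each had 3 libraries, for which the labels give the same 3 animal identifiers in every group. The cells were made in culture and their live fraction was sorted and frozen before the libraries were prepared, so no group was taken directly from a tissue.

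Hypoxia-inducible factor 1 (HIF-1) is a pair of the oxygen-regulated subunit HIF-1alpha, encoded by Hif1a, and the constant partner Arnt. Prolyl hydroxylases (Egln1, Egln3) mark HIF-1alpha for the VHL ubiquitin ligase when oxygen is present. HIF-1 binds the short hypoxia response element and raises transcription of glucose and lactate transporters, most glycolytic enzymes and genes such as Vegfa, Bnip3 and Ndrg1. In T cells, activation turns glycolysis on, and Th17 cells are known to depend on HIF-1alpha and glycolysis more than regulatory T cells do. A peak near a gene shows open DNA there. It does not show how much the gene is transcribed, and distance alone does not show which gene a region acts on.

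The gene starts of 7 members whose start peak became less accessible with DFMO in iTreg are shown first, with that of Ldha, whose start peaks passed no DFMO test, beside them. Each sequence is the stretch of 250 bases just before a gene start in the RefSeq annotation of GRCm38.p6, the assembly that mm10 names. The letters searched on both strands were ACGTG and GCGTG, the cores of the hypoxia response element. They are in capitals (CACGT and CACGC are the same letters on the other strand). CACGTG, the E-box bound by MYC and related factors, contains ACGTG. Gapdh, which also had a start peak that fell in iTreg, is not shown. That peak overlapped no window, and the Gapdh window held GCGTG but no ACGTG. The windows were Slc16a3 (chr11:120948817-120949066, plus strand), Egln3 (chr12:54203875-54204124, minus strand), Bnip3 (chr7:138909507-138909756, minus strand), Ankrd37 (chr8:45999851-46000100, minus strand), Slc2a1 (chr4:119108495-119108744, plus strand), Hk2 (chr6:82774455-82774704, minus strand), Pfkfb3 (chr2:11502091-11502340, minus strand) and Ldha (chr7:46845554-46845803, plus strand).
Slc16a3: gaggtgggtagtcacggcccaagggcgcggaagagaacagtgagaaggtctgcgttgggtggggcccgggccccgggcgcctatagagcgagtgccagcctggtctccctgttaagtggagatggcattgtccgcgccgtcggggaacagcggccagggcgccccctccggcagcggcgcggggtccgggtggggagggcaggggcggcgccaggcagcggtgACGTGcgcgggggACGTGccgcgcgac
Egln3: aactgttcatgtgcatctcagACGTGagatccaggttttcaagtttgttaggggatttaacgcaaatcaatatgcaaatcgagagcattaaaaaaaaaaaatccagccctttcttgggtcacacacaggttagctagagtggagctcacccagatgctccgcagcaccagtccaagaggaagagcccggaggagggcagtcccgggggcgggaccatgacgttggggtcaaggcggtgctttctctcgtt
Bnip3: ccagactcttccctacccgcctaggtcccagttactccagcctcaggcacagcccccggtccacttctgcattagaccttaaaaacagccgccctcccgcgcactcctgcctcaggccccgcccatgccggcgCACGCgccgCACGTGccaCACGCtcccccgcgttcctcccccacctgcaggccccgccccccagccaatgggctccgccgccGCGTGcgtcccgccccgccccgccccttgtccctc
Ankrd37: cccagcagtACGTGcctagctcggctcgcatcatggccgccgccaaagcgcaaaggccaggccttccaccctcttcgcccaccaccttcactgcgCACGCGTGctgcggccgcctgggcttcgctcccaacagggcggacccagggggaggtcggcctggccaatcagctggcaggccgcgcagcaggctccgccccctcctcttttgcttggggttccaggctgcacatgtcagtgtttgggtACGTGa
Slc2a1: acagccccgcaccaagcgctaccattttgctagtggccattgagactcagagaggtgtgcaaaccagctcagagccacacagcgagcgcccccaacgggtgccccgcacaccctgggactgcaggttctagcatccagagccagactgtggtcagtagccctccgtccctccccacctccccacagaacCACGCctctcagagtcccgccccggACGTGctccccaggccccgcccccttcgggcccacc
Hk2: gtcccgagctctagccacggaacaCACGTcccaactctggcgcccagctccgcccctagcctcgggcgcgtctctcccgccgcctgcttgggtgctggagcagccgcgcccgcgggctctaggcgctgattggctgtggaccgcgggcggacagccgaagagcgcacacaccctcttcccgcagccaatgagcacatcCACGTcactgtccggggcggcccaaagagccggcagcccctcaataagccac
Pfkfb3: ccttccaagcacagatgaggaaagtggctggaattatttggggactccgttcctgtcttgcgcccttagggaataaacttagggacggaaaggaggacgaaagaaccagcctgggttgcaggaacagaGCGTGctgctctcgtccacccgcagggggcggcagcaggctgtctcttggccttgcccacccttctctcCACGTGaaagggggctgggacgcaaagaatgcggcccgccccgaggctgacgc
Ldha: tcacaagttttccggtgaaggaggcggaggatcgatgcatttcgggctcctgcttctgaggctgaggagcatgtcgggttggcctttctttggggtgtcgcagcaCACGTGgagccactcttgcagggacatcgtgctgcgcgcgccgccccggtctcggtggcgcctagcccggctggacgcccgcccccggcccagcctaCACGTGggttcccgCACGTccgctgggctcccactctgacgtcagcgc

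Windows were given for 29 of the 32 genes, 40 in all, and none was given for Slc2a3, Ndrg1 or Bnip3l. ACGTG occurred in 20 of the 40 (50.0%), against 16.6% of the 32851 windows of the same length at all genes with a listed start. Some genes have several windows, and at Aldoa and Eno1 some of these overlap, so the same site can count more than once. GCGTG occurred in 55.0% against 28.2%, either core in 80.0% against 38.6%, and CACGTG in 12.5% against 6.02%. The windows at all genes include starts without a peak, while most of the 40 overlapped one, so the 2 sets are unlike. Among tested start peaks that overlapped a window, 2044 had ACGTG in it and 6520 did not over all genes. At the members these numbers were 18 and 13. All of these are matches of letters, and binding was not measured.

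Library totals ran from 1020937 to 6496550 counts, a ratio of 6.36, and levels are given as CPM (counts per 1000000 counts in peaks of that library), which are not per base. Stronger, weaker and smaller, said of start peaks of the same gene, refer to CPM alone, whatever the peak widths. Levels of different peaks are not otherwise compared. Of the 155 peaks, 141 passed the filter on low counts and were tested. The 14 untested peaks had mean levels of 0.801 to 2.76 CPM. Egln3 had 14 peaks, P4ha2 and Pfkfb3 13 each, Hif1a 12, Pfkp 9 and Hk2 8, Slc2a1, Slc2a3 and Hk1 had 7 each and Slc16a1 6, and the remaining genes had 5 or fewer. By place, 36 peaks reached to within 1 kb of an annotated gene start, 3 at an end of Slc2a3, Ndrg1 or Bnip3l, whose start was not given, 44 inside a gene model and 72 outside. Peak starts are printed as the deposited table gives them (whether they count from 0 or 1 is not stated). Distances are from the peak centre to the nearest gene start, with minus meaning before it. The summed level over the peaks of 5 Th17 marker genes (Il17a, Il17f, Il23r, Ccr6, Il1r1) was 599.4 to 635.7 CPM in Th17n vehicle and 243.5 to 310.1 CPM in iTreg vehicle. With DFMO it was 433.7 to 525.7 CPM in Th17n and 164.4 to 238.2 CPM in iTreg. Over 6 Treg marker genes it was 1241 to 1338 CPM in Th17n vehicle, 979.6 to 1057 CPM in Th17n DFMO, 1224 to 1303 CPM in iTreg vehicle and 904.5 to 1125 CPM in iTreg DFMO, so this list did not separate the lineages. The B cell markers Cd79a, Cd79b and Ms4a1 and the markers Cd8a and Ncr1 had no peak assigned. At 2 genes of the B cell list 21 peaks summed to 213.8 to 255.5 CPM in Th17n vehicle, 223.3 to 238.8 CPM in Th17n DFMO, 120.7 to 166.2 CPM in iTreg vehicle and 110.9 to 127.2 CPM in iTreg DFMO. At 4 genes of the CD8 and NK cell list 14 peaks summed to 160.6 to 182.2, 156.3 to 194.7, 192.5 to 213.2 and 219.2 to 261.8 CPM in the same order. The part of these marker shifts in the results below was not tested. In such bulk libraries, fewer cells with an open site and a less open site in every cell cannot be told apart.

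DFMO lowered accessibility at more of these peaks than it raised, in both lineages. In Th17n, 17 of 141 tested peaks fell and 5 rose at an adjusted p under 0.05 (edgeR quasi-likelihood test, Benjamini-Hochberg over all 43726 tested peaks). That is 12.1% lower and 3.55% higher, where 4.28% of all tested peaks fell and 4.50% rose. In iTreg, 17 fell and 9 rose, 12.1% and 6.38%, where 4.72% of all tested peaks fell and 3.84% rose. The median log2 change over the 141 peaks was -0.17 in Th17n (0.01 over all tested peaks) and -0.14 in iTreg (-0.01 over all). In Th17n 12 genes had a peak that fell and 3 a peak that rose, and in iTreg 12 and 6. At 18 genes in Th17n and 16 in iTreg no peak passed. Summed over all 155 peaks, the members held 4554 to 4676 CPM in Th17n vehicle and 4083 to 4224 CPM in Th17n DFMO. The iTreg sums were 4476 to 4731 CPM with vehicle and 3855 to 4232 CPM with DFMO. Neither pair of ranges overlapped. The Th17 and Treg marker sums given above also fell without overlap in both lineages, so such a fall was not particular to the members. The B cell sums and the CD8 and NK cell sums did not fall in this way in either lineage. The number of lower peaks in Th17n was 11 without Th17n vehicle animal 2 and 11 without Th17n vehicle animal 3, and that in iTreg was 10 without iTreg DFMO animal 3. Over all tested peaks, 950 and 909 were lower in Th17n in those fits, against 1873 with all libraries. In iTreg, 795 of all tested peaks were lower without iTreg DFMO animal 3, against 2065 with all libraries. Higher peaks in Th17n numbered 3 without Th17n vehicle animal 1, Th17n DFMO animal 2 or Th17n DFMO animal 3, and 2 without Th17n vehicle animal 3 or Th17n DFMO animal 1. Higher peaks in iTreg numbered 2 without iTreg vehicle animal 2 and 4 without iTreg vehicle animal 3 or iTreg DFMO animal 3. Over all tested peaks, higher calls in iTreg numbered 774, 649 and 621 in these fits, against 1677 with all libraries. Those in Th17n numbered 728 without Th17n vehicle animal 3 and 748 without Th17n DFMO animal 1, against 1968.

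The DFMO comparisons in the 2 lineages share no library. They do share the 3 animal identifiers and 1 fit to all 12 libraries, so they are not fully separate. Of the peaks that fell, 5 did so in both, 29.4% of each 17, and over all tested peaks the shared share was 21.3% of those lower in Th17n and 19.3% of those lower in iTreg. These 5 were 2 Hif1a peaks at -31.0 kb and 40.6 kb, the Bnip3 start peak, an Hk2 peak inside the gene at 29.7 kb and a Gapdh peak at -0.718 kb. A peak of Pfkfb3 at 60.1 kb rose in both. No member peak rose in one lineage and fell in the other.

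**Figure D1:**
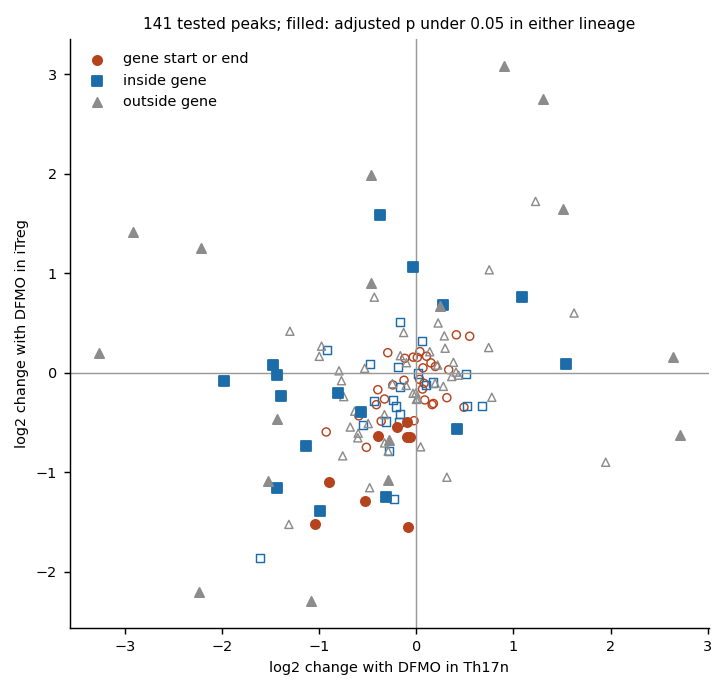
Log2 change with DFMO in Th17n (horizontal axis) and in iTreg (vertical axis) for each of the 141 tested peaks, with colour and shape for the peak's place and filled symbols for an adjusted p under 0.05 in either lineage. Filled gene-start symbols lie below 0 on the vertical axis, and the lowest values on the horizontal axis, -3.27 and -2.92, belong to peaks outside Ndrg1 and Bnip3l.

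The peaks were also counted by place. In iTreg, 8 of the 36 gene-start peaks fell and 0 rose, 22.2% lower, where 3.32% of 9576 start peaks of all genes fell and 3.71% rose. The 8 lay at Slc16a3, Egln3, Bnip3, Ankrd37, Slc2a1, Hk2, Pfkfb3 and Gapdh, and the peak at the end of Ndrg1 fell as well. Without iTreg DFMO animal 3, 5 of the 36 fell in iTreg, and leaving out any other single library gave 7 to 10. In Th17n, 2 of 36 fell (Bnip3 and Gapdh, 5.56%) and 0 rose, where 1.73% of all start peaks fell and 4.39% rose. That count was 1 without Th17n vehicle animal 1, Th17n vehicle animal 2 or Th17n DFMO animal 3, and 4 without iTreg DFMO animal 1 or iTreg DFMO animal 3. Inside gene models, 8 of 38 tested peaks fell and 2 rose in Th17n (21.1% and 5.26%), and 4 fell and 3 rose in iTreg (10.5% and 7.89%). Of all tested peaks inside gene models, 5.72% fell and 4.09% rose in Th17n, and 5.69% and 3.63% in iTreg. Outside them, 7 of 64 fell and 3 rose in Th17n (10.9% and 4.69%), and 4 fell and 6 rose in iTreg (6.25% and 9.38%). Of all tested peaks outside, 4.49% fell and 4.83% rose in Th17n, and 4.69% and 3.91% in iTreg. Leaving out each library in turn gave 5 to 8 lower and 0 to 3 higher peaks inside in Th17n, and 1 to 5 lower and 0 to 3 higher in iTreg. Outside, it gave 4 to 8 lower and 2 to 3 higher in Th17n, and 3 to 5 lower and 2 to 6 higher in iTreg. Whether DFMO acted differently on start peaks as a class in the 2 lineages was not tested. For single start peaks the difference was tested, and only that of Slc16a3 among the 36 passed.

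**Figure D2:**
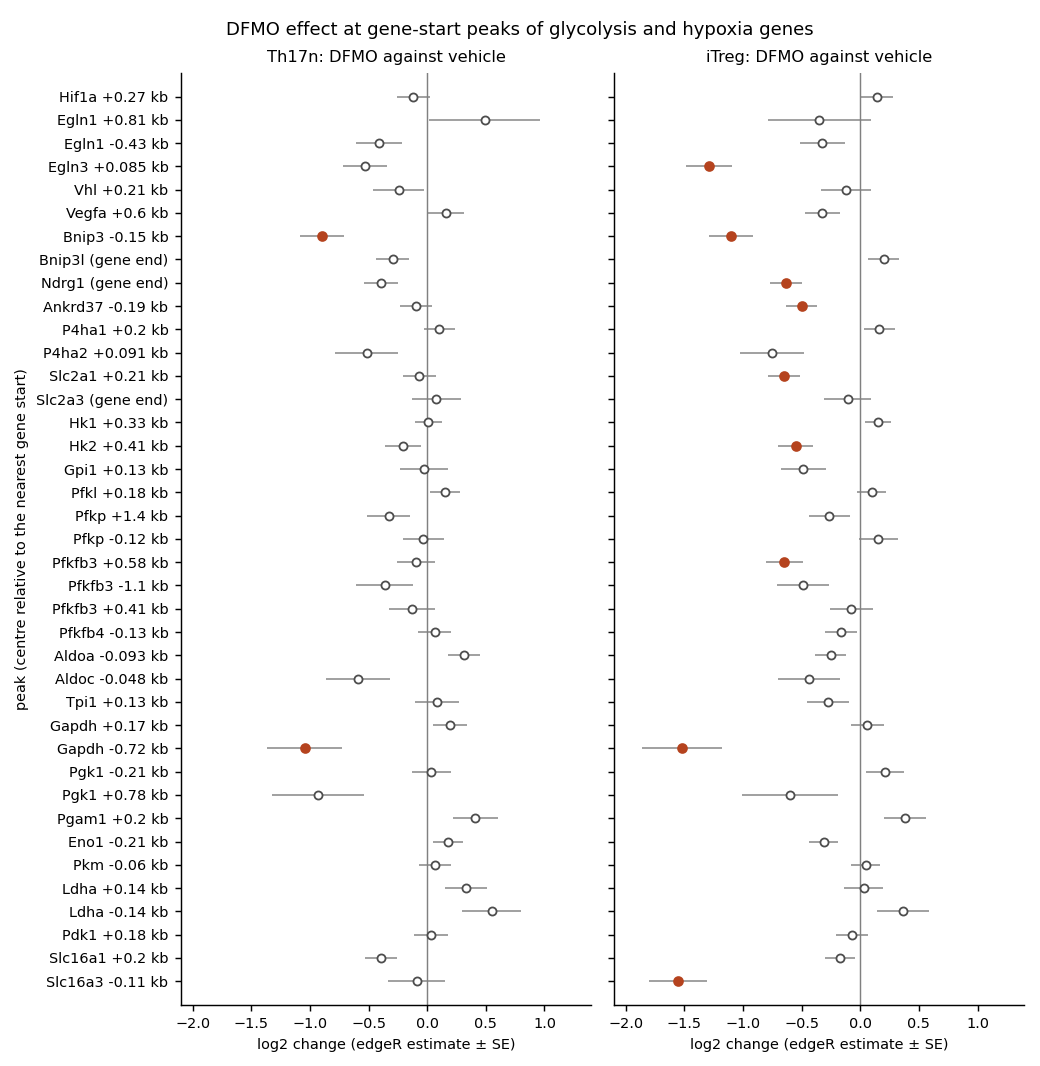
Log2 change with DFMO (edgeR estimate with its SE as a bar) at the 36 gene-start and 3 gene-end peaks, in Th17n (left) and iTreg (right), with filled symbols for an adjusted p under 0.05. In iTreg 9 of the 39 are filled, from -1.55 at Slc16a3 to -0.50 at Ankrd37, and in Th17n 2 are filled, at Bnip3 and Gapdh.

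Of the start peaks over a window with ACGTG, 7 of 18 fell in iTreg, and 0 of 13 over a window without it. The remaining start peaks overlapped no window and are in neither count. Among these was the Gapdh start peak that fell in both lineages, whose gene has a window without ACGTG. Over all genes the same split gave 3.18% lower of 2044 start peaks with ACGTG and 3.22% of 6520 without. In Th17n, 1 of the 18 fell and 0 of the 13. Without iTreg DFMO animal 3, 4 of the 18 fell in iTreg and 3 in Th17n, and 0 of the 13 in either. Leaving out any other single library gave 6 to 8 of the 18 in iTreg and between 1 and 3 in Th17n, and 1 of the 13 fell in iTreg without iTreg DFMO animal 2.

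Among the oxygen-sensing genes (Hif1a, Egln1, Egln3 and Vhl), peaks away from the Hif1a start fell in both lineages. Egln3 peaks away from the start fell in Th17n, and the Egln3 start peak fell in iTreg. Of 26 tested peaks of these 4 genes, 6 fell in Th17n (23.1%, against 4.28% of all tested peaks) and 4 in iTreg (15.4%, against 4.72%), and 0 rose in either. Fits without 1 library gave 3 to 8 lower peaks in Th17n, with 3 without Th17n vehicle animal 2, Th17n vehicle animal 3 or Th17n DFMO animal 1, and 3 to 4 in iTreg. The median log2 change was -0.51 in Th17n and -0.39 in iTreg. Their summed level was 872.7 to 954.9 CPM in Th17n vehicle and 695.6 to 710.5 CPM in Th17n DFMO, and in iTreg 555.9 to 724.1 CPM with vehicle and 505.4 to 554.6 CPM with DFMO. Vhl, which encodes the ubiquitin ligase subunit that binds hydroxylated HIF-1alpha, and Egln1, the main oxygen-sensing hydroxylase, had no peak that passed. The Vhl start peak changed by -0.24 in Th17n and -0.13 in iTreg on the log2 scale, and the stronger Egln1 start peak by -0.41 and -0.32.

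At the Hif1a start (chr12:73907503-73908763), animals 1, 2 and 3 had 71.5, 103 and 122 CPM in Th17n vehicle and 79.0, 106 and 93.8 CPM in Th17n DFMO. The iTreg values there were 114, 122 and 129 CPM with vehicle and 143, 119 and 137 CPM with DFMO. Vehicle and DFMO overlapped in both lineages (log2 change -0.12 ± 0.14 SE, adjusted p = 0.664 in Th17n and 0.14 ± 0.13 SE, adjusted p = 0.57 in iTreg). The peak at -31.0 kb (chr12:73876456-73877296) had 7.16, 10.5 and 15.8 CPM in iTreg vehicle and 1.17, 1.90 and 3.22 CPM in iTreg DFMO. In Th17n it had 26.4, 28.0 and 30.2 CPM with vehicle and 12.7, 13.8 and 13.0 CPM with DFMO. All DFMO values lay below all vehicle values in each lineage, with log2 changes of -2.29 ± 0.41 SE, adjusted p = 0.000188 in iTreg and -1.08 ± 0.30 SE, adjusted p = 0.0153 in Th17n. At -19.6 kb (chr12:73887833-73888708), the iTreg libraries had 37.9, 39.5 and 43.7 CPM with vehicle and 12.3, 23.2 and 19.9 CPM with DFMO, without overlap (-1.08 ± 0.19 SE, adjusted p = 0.000231). The Th17n libraries there had 73.5, 74.8 and 87.2 CPM and 56.2, 64.0 and 71.0 CPM and did not pass (-0.30 ± 0.17 SE, adjusted p = 0.282). The peak at 40.6 kb, which lies 0.741 kb outside the gene model (chr12:73948295-73948683), had 9.79, 16.3 and 14.1 CPM in Th17n vehicle and 1.95, 5.19 and 1.30 CPM in Th17n DFMO. The groups did not overlap in Th17n (-2.24 ± 0.48 SE, adjusted p = 0.00188), and in iTreg the change was -2.21 (adjusted p = 0.0207). Next to it, the peak at 42.0 kb changed by -1.53 in Th17n (adjusted p = 0.0295).

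Several of these Hif1a calls were lost when 1 library was left out. At -31.0 kb the Th17n call was lost without Th17n vehicle animal 2 (adjusted p = 0.0566), Th17n vehicle animal 3 (0.0661) or Th17n DFMO animal 1 (0.0618). At 40.6 kb the iTreg call was lost without iTreg vehicle animal 2 (adjusted p = 0.0621), iTreg vehicle animal 3 (0.0796), iTreg DFMO animal 1 (0.0872) or iTreg DFMO animal 3 (0.161). At 42.0 kb the Th17n call was lost without Th17n vehicle animal 1 (adjusted p = 0.0526), Th17n vehicle animal 2 (0.0658), Th17n vehicle animal 3 (0.107), Th17n DFMO animal 1 (0.202) or Th17n DFMO animal 3 (0.0766), and with DESeq2 its adjusted p was 0.0503. Thinned to the lowest library total, the peak at -31.0 kb had an adjusted p of 0.0835 in Th17n, and those at 40.6 kb and 42.0 kb were too low to test. The iTreg calls at -31.0 kb and -19.6 kb held without any single library.

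Egln3, itself a HIF target that encodes a HIF prolyl hydroxylase, had 44.0, 60.4 and 75.0 CPM at its start (chr12:54203249-54204330) in iTreg vehicle and 25.8, 28.5 and 20.8 CPM in iTreg DFMO. The lowest vehicle library lay above the highest DFMO library (log2 change -1.29 ± 0.20 SE, adjusted p = 2.06e-05). In Th17n the start peak had 88.2, 70.7 and 51.7 CPM with vehicle and 43.9, 47.2 and 48.2 CPM with DFMO and did not pass (-0.53 ± 0.19 SE, adjusted p = 0.0614). The difference between the lineages' changes was 0.76 ± 0.27 SE, adjusted p = 0.156. Beyond the far end of the gene, at 26.4 kb (chr12:54176530-54178319), Th17n vehicle had 68.6, 69.6 and 79.3 CPM and Th17n DFMO 29.9, 22.5 and 26.1 CPM. These groups did not overlap (-1.44 ± 0.23 SE, adjusted p = 4.26e-05), while iTreg had 12.3, 7.09 and 11.3 CPM with vehicle and 10.6, 9.49 and 3.22 CPM with DFMO (-0.47 ± 0.33 SE, adjusted p = 0.415). The Egln3 peaks at -79.9 kb and 5.33 kb also fell in Th17n, with log2 changes of -2.22 (adjusted p = 0.00941) and -1.44 (0.0442). The first was lost without Th17n vehicle animal 3 (adjusted p = 0.0569). The second was lost without Th17n vehicle animal 2 (adjusted p = 0.121), Th17n vehicle animal 3 (0.16), Th17n DFMO animal 1 (0.253) or Th17n DFMO animal 3 (0.0759), with the animal as a block (0.0669) and with DESeq2 (0.0647). Neither was high enough to test after thinning.

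**Figure D3:**
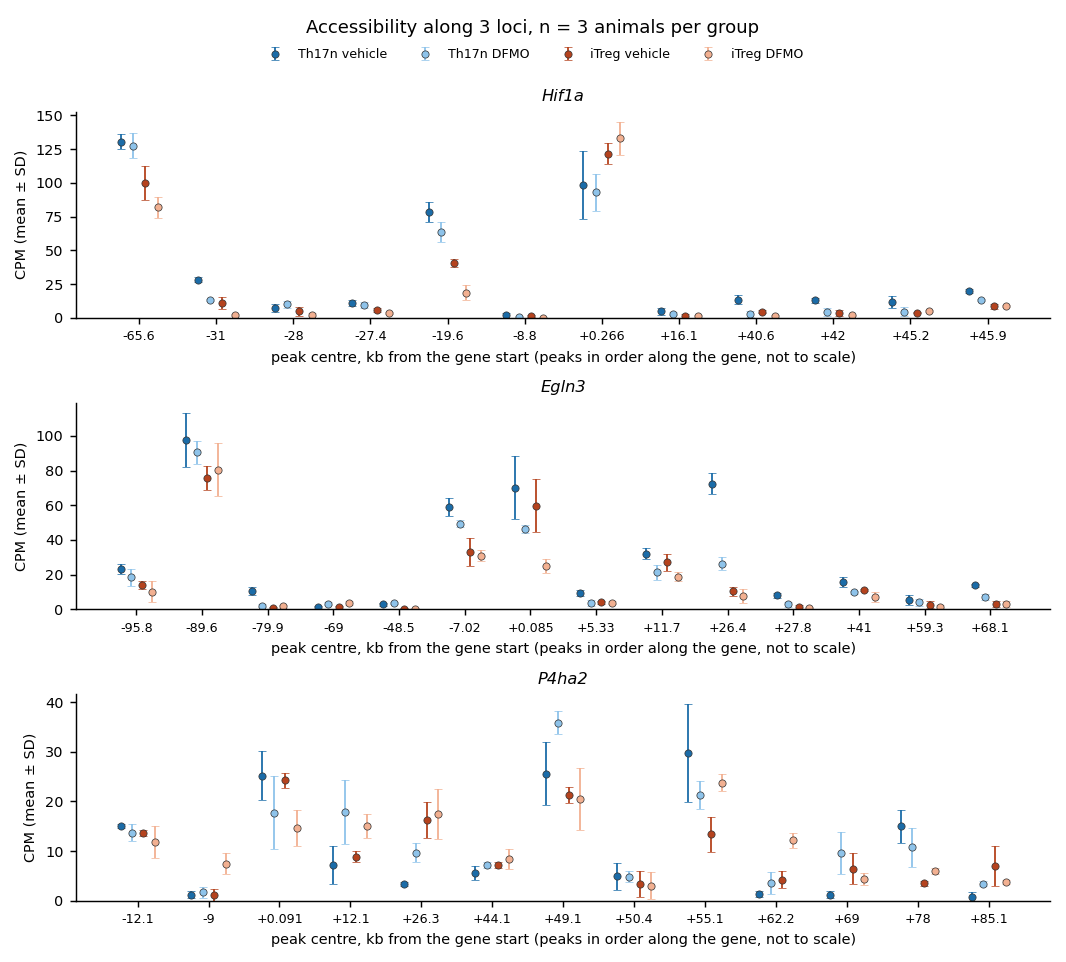
Mean CPM with SD (n = 3 animals) in the 4 groups at every peak of Hif1a, Egln3 and P4ha2, in order along each gene, with the distance of the peak centre from the gene start in kb. The Hif1a start is similar in vehicle and DFMO while the peaks at -31.0 and -19.6 kb are lowest in iTreg DFMO, and the Egln3 peak at 26.4 kb is highest in Th17n vehicle.

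The other HIF targets, Vegfa, Bnip3, Bnip3l, Ndrg1, Ankrd37, P4ha1 and P4ha2, changed in both directions. Of 32 tested peaks, 4 fell and 4 rose in Th17n, 12.5% each, where 4.28% of all tested peaks fell and 4.50% rose. In iTreg 3 fell and 3 rose, 9.38% each, where 4.72% of all fell and 3.84% rose. Leaving out each library in turn gave 3 to 5 lower and 2 to 4 higher in Th17n, and 2 to 6 lower and 1 to 3 higher in iTreg. All the peaks that fell were at Bnip3, Bnip3l, Ndrg1 and Ankrd37, and those that rose were at P4ha2 and Vegfa. P4ha1, a prolyl hydroxylase subunit that acts on collagen, had no peak that passed, with 0.10 in Th17n and 0.16 in iTreg at its start on the log2 scale. At Bnip3, a mitochondrial protein that promotes mitophagy, the start peak (chr7:138909175-138910148) had 58.8, 53.1 and 54.0 CPM in Th17n vehicle and 35.7, 23.8 and 25.4 CPM in Th17n DFMO. In iTreg it had 67.0, 55.0 and 57.0 CPM with vehicle and 27.6, 24.7 and 28.7 CPM with DFMO. The start peak fell in each lineage without overlap (-0.90 ± 0.19 SE, adjusted p = 0.00132 in Th17n and -1.10 ± 0.18 SE, adjusted p = 8.44e-05 in iTreg, log2), and both calls held without any single library. A Bnip3 peak inside the gene at 2.24 kb also fell in Th17n, with a log2 change of -1.44 (adjusted p = 0.0313), and was lost without Th17n vehicle animal 1 (adjusted p = 0.0509), Th17n vehicle animal 2 (0.0622), Th17n vehicle animal 3 (0.114), Th17n DFMO animal 1 (0.0736), Th17n DFMO animal 2 (0.0852) or Th17n DFMO animal 3 (0.08).

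Ndrg1, a stress-response gene of the N-myc downregulated family, had 2 peaks that fell, each in 1 lineage. The peak at the end of its gene model (chr15:66968807-66970237) had 88.5, 84.9 and 86.7 CPM in iTreg vehicle and 58.1, 55.5 and 52.2 CPM in iTreg DFMO, without overlap (-0.63 ± 0.14 SE, adjusted p = 0.00234). In Th17n it had 85.2, 75.4 and 70.2 CPM and 57.2, 58.4 and 54.0 CPM and did not pass (-0.39 ± 0.14 SE, adjusted p = 0.0725). The peak 48.2 kb outside the gene (chr15:67017858-67018345) had 21.6, 23.6 and 18.5 CPM in Th17n vehicle and 2.92, 1.73 and 1.30 CPM in Th17n DFMO. The change there was -3.27 ± 0.44 SE, adjusted p = 1.65e-06, and the iTreg libraries had 1.02, 1.72 and 1.42 CPM with vehicle and 1.17, 1.90 and 1.76 CPM with DFMO. Th17n vehicle was thus the only one of the 4 groups above 3 CPM at this region. Bnip3l, a mitophagy receptor related to Bnip3, had a peak 7.67 kb outside the gene (chr14:66977033-66977565) with 31.3, 20.6 and 23.2 CPM in Th17n vehicle and 2.92, 1.30 and 5.86 CPM in Th17n DFMO. Its log2 change was -2.92 (adjusted p = 3.58e-05), and in iTreg it had 1.02, 1.72 and 0 CPM with vehicle and 3.52, 1.42 and 2.35 CPM with DFMO (1.42 ± 0.69 SE, adjusted p = 0.21). This peak was too low to test after thinning, and the peak at the end of the Bnip3l model did not pass (-0.30 in Th17n and 0.20 in iTreg). Ankrd37, a small ankyrin-repeat gene used as a HIF readout, fell at its start (chr8:45999546-46000537) in iTreg, from 118, 108 and 96.2 CPM to 83.9, 71.6 and 69.2 CPM, without overlap (-0.50 ± 0.13 SE, adjusted p = 0.0124). That call was lost without iTreg vehicle animal 2 (adjusted p = 0.0557) or iTreg DFMO animal 3 (0.114), and after thinning (0.115).

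Vegfa, the angiogenic growth factor, did not pass at its start (chr17:46030603-46032949), with 67.6, 83.0 and 94.5 CPM in Th17n vehicle and 89.7, 98.7 and 87.2 CPM in Th17n DFMO. The iTreg values were 115, 99.5 and 97.0 CPM and 52.2, 102 and 86.8 CPM, and the groups overlapped in both lineages (0.16 ± 0.15 SE, adjusted p = 0.575 and -0.32 ± 0.15 SE, adjusted p = 0.183). The peak at -13.5 kb (chr17:46045654-46046018) had 0, 1.69 and 0.294 CPM in Th17n vehicle and 5.20, 7.36 and 7.81 CPM in Th17n DFMO. It rose there without overlap (2.65 ± 0.53 SE, adjusted p = 0.000866), and in iTreg had 20.5, 11.4 and 11.7 CPM with vehicle and 13.5, 16.1 and 16.1 CPM with DFMO (0.15 ± 0.34 SE, adjusted p = 0.839).

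P4ha2, a collagen prolyl hydroxylase subunit induced by HIF, had 13 peaks, of which 3 rose in Th17n, 3 others rose in iTreg and 0 fell. In Th17n, the peak at 69.0 kb (chr11:54169761-54170126) had 0.980, 2.00 and 0.587 CPM with vehicle and 6.17, 8.22 and 14.3 CPM with DFMO (2.71 ± 0.55 SE, adjusted p = 0.000917). The peak at 26.3 kb (chr11:54126827-54127693) had 2.94, 3.69 and 3.23 CPM with vehicle and 11.7, 9.52 and 7.81 CPM with DFMO (1.54 ± 0.38 SE, adjusted p = 0.00738). In iTreg, the peak at -9.0 kb (chr11:54091830-54092016) had 2.56, 0.430 and 0.404 CPM with vehicle and 7.63, 9.49 and 5.28 CPM with DFMO (3.08 ± 0.68 SE, adjusted p = 0.00259). None of these 3 pairs overlapped, and each region was at or below 3.69 CPM in every library of its lower group. The remaining rises were 1.09 at 12.1 kb in Th17n (adjusted p = 0.0323), and 0.90 at 55.1 kb (0.0257) and 1.65 at 62.2 kb (0.0166) in iTreg. The P4ha2 start peak did not pass (-0.52 in Th17n and -0.75 in iTreg). In Th17n the call at 26.3 kb was lost without Th17n vehicle animal 3 (adjusted p = 0.0522) or Th17n DFMO animal 1 (0.0832), and that at 12.1 kb without Th17n vehicle animal 1 (adjusted p = 0.134), Th17n vehicle animal 3 (0.129), Th17n DFMO animal 1 (0.0605), Th17n DFMO animal 2 (0.051) or Th17n DFMO animal 3 (0.238). In iTreg the call at 55.1 kb was lost without iTreg vehicle animal 2 (adjusted p = 0.152), iTreg vehicle animal 3 (0.115), iTreg DFMO animal 1 (0.061) or iTreg DFMO animal 3 (0.0674), and that at 62.2 kb without iTreg vehicle animal 2 (adjusted p = 0.115), iTreg vehicle animal 3 (0.0898) or iTreg DFMO animal 3 (0.0997). After thinning, of these 6 calls the one at 12.1 kb remained, and those at 26.3 kb and 55.1 kb had adjusted p of 0.0774 and 0.0573. The others were too low to test.

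**Figure D4:**
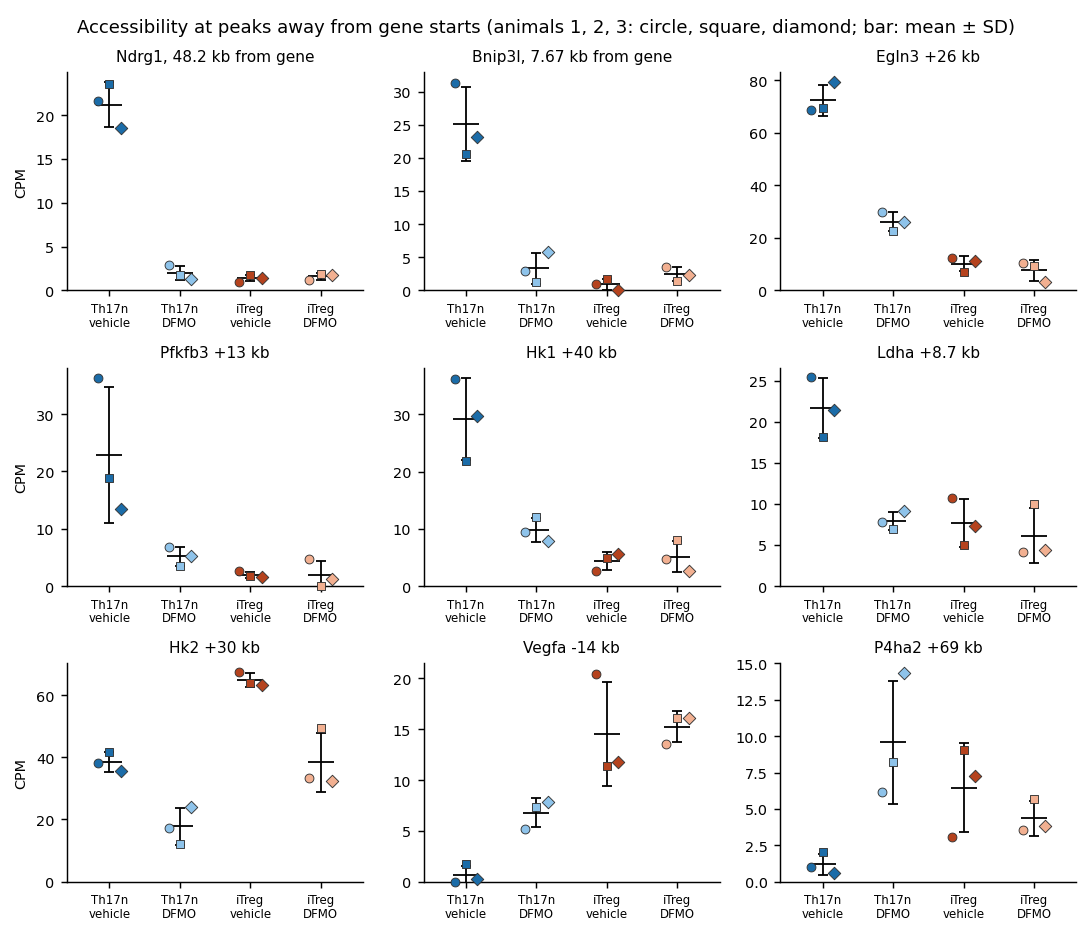
CPM in each library (circle, square and diamond for animals 1, 2 and 3, with the mean and SD as bars) at 9 peaks away from gene starts. Th17n vehicle stands above the other groups at Ndrg1, Bnip3l, Egln3, Pfkfb3, Hk1 and Ldha, and below them at Vegfa and P4ha2.

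At the transporters of glucose and lactate, some peaks fell with DFMO and 0 rose. Of 19 tested peaks of Slc2a1, Slc2a3, Slc16a1 and Slc16a3, 2 fell in Th17n (10.5%, against 4.28% of all tested peaks) and 5 in iTreg (26.3%, against 4.72%). Without any 1 library the count was between 1 and 3 in Th17n and at least 4 in iTreg. The summed level was 814.6 to 837.5 CPM in Th17n vehicle and 658.9 to 768.0 CPM in Th17n DFMO, and in iTreg 820.8 to 895.5 CPM with vehicle and 678.5 to 741.1 CPM with DFMO. At Slc16a3, which encodes the lactate exporter MCT4, both peaks fell in iTreg. The start peak (chr11:120948552-120949360) had 34.3, 38.5 and 40.0 CPM in iTreg vehicle and 18.2, 9.49 and 11.4 CPM in iTreg DFMO. The highest DFMO library was well below the lowest vehicle library (-1.55 ± 0.25 SE, adjusted p = 3.79e-05). In Th17n the start peak had 27.4, 22.0 and 26.7 CPM with vehicle and 22.4, 22.1 and 24.7 CPM with DFMO, which overlapped (-0.09 ± 0.24 SE, adjusted p = 0.87). Inside the gene at 1.9 kb (chr11:120950677-120951252), iTreg had 42.5, 42.3 and 42.5 CPM with vehicle and 17.6, 16.6 and 18.2 CPM with DFMO (-1.25 ± 0.22 SE, adjusted p = 0.000145), again without overlap. Both iTreg calls held without any single library. Slc16a1, which encodes the lactate carrier MCT1, had 6 tested peaks and none passed, its start peak changing by -0.40 ± 0.14 SE, adjusted p = 0.0554 in Th17n and by -0.17 ± 0.13 SE, adjusted p = 0.46 in iTreg.

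At Slc2a1, which encodes the glucose transporter GLUT1, the start peak (chr4:119108464-119109445) had 136, 139.9 and 128 CPM in iTreg vehicle and 79.8, 103 and 72.4 CPM in iTreg DFMO. All DFMO values were below all vehicle values (-0.65 ± 0.14 SE, adjusted p = 0.00137). Th17n had 94.0, 109 and 99.2 CPM and 84.5, 87.0 and 119.8 CPM there, which overlapped (-0.07 ± 0.14 SE, adjusted p = 0.829). The neighbouring peak at -2.81 kb (chr4:119105647-119106220) had 74.2, 64.9 and 64.3 CPM in iTreg vehicle and 45.2, 40.3 and 39.6 CPM in iTreg DFMO (-0.68 ± 0.16 SE, adjusted p = 0.00373), without overlap, and was lost after thinning (0.16). Inside the gene at 16.9 kb, the Th17n change was -0.58 (adjusted p = 0.0169) and was lost without Th17n vehicle animal 2 (adjusted p = 0.0546), Th17n vehicle animal 3 (0.119) or Th17n DFMO animal 1 (0.102). At Slc2a3, which encodes the high-affinity glucose transporter GLUT3, the peak at the end of the gene model (chr6:122801206-122802271) had 39.2, 32.3 and 31.4 CPM in Th17n vehicle and 32.2, 43.3 and 28.0 CPM in Th17n DFMO. In iTreg it had 42.5, 43.6 and 30.7 CPM and 35.8, 39.9 and 31.1 CPM, and the groups overlapped in both lineages. Inside Slc2a3, the peak at chr6:122764332-122765256 changed by -0.81 in Th17n (adjusted p = 0.0157) and that at chr6:122758656-122759061 by -1.39 in iTreg (0.0403). The Th17n call was lost without Th17n DFMO animal 3 (adjusted p = 0.0675). The iTreg call was lost without Th17n vehicle animal 2 (adjusted p = 0.0567), Th17n vehicle animal 3 (0.0574), Th17n DFMO animal 1 (0.0501), iTreg vehicle animal 2 (0.0678), iTreg vehicle animal 3 (0.383), iTreg DFMO animal 1 (0.153) or iTreg DFMO animal 3 (0.291), with DESeq2 (0.0742), after thinning (0.0573) and in a fit of the 6 iTreg libraries (0.106).

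**Figure D5:**
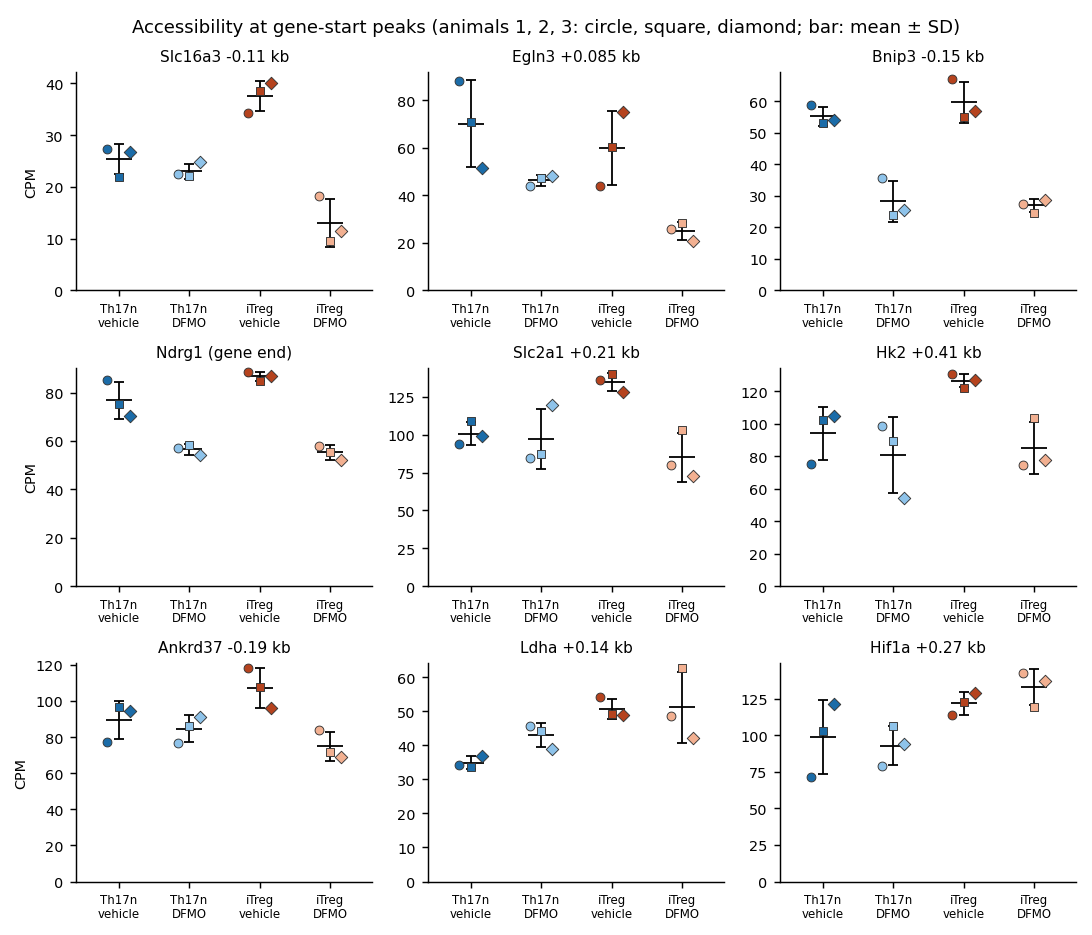
CPM in each library (circle, square and diamond for animals 1, 2 and 3, with the mean and SD as bars) at 9 gene-start or gene-end peaks. At Slc16a3, Slc2a1, Hk2 and Ankrd37 the iTreg vehicle libraries are the highest of the 4 groups on average and fall with DFMO, Bnip3 falls in both lineages, and the iTreg means of Ldha and Hif1a are not lower with DFMO.

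Among the glycolytic enzymes, changes passed at Hk1, Hk2, Gapdh, Ldha and Pfkp. Of 46 tested peaks of 14 enzyme genes, 4 fell (8.70%, against 4.28% of all tested peaks) and 0 rose in Th17n. In iTreg 4 fell (8.70%, against 4.72%) and 2 rose (4.35%, against 3.84%). With 1 library left out, there were 3 to 4 lower and 0 to 1 higher in Th17n, and 1 to 5 lower and 0 to 2 higher in iTreg, with 1 lower without iTreg DFMO animal 3. The summed level of the enzyme peaks overlapped between vehicle and DFMO in Th17n (1521 to 1622 and 1536 to 1603 CPM) and in iTreg (1691 to 1839 and 1515 to 1724 CPM). Hk2, the inducible hexokinase that starts glycolysis, had a peak inside the gene at 29.7 kb (chr6:82744468-82745114) with 38.2, 41.9 and 35.5 CPM in Th17n vehicle and 17.2, 12.1 and 24.1 CPM in Th17n DFMO. In iTreg it had 67.5, 63.8 and 63.3 CPM with vehicle and 33.5, 49.3 and 32.2 CPM with DFMO. It fell without overlap in both lineages (-1.14 ± 0.22 SE, adjusted p = 0.000542 in Th17n and -0.74 ± 0.19 SE, adjusted p = 0.00902 in iTreg). At the Hk2 start (chr6:82773185-82774908), iTreg had 130.4, 122 and 127 CPM with vehicle and 74.5, 103 and 77.4 CPM with DFMO, without overlap (-0.55 ± 0.15 SE, adjusted p = 0.0136). Th17n had 75.4, 102 and 104 CPM and 98.8, 89.1 and 54.0 CPM there and overlapped (-0.20 ± 0.15 SE, adjusted p = 0.45). Another Hk2 peak, at 20.9 kb, rose in iTreg by 0.68 (adjusted p = 0.0176). In iTreg the call at 29.7 kb was lost without iTreg DFMO animal 3 (adjusted p = 0.109). The start call was lost without iTreg vehicle animal 3 (adjusted p = 0.0531), iTreg DFMO animal 1 (0.0913) or iTreg DFMO animal 3 (0.127), and that at 20.9 kb without iTreg vehicle animal 2 (adjusted p = 0.0957), iTreg vehicle animal 3 (0.0625) or iTreg DFMO animal 2 (0.121). After thinning, the adjusted p at 29.7 kb was 0.0715 in Th17n and 0.117 in iTreg, and that at the start was 0.209.

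Hk1, the constitutive hexokinase, had 36.2, 21.9 and 29.7 CPM in Th17n vehicle and 9.42, 12.1 and 7.81 CPM in Th17n DFMO inside the gene at 40.0 kb (chr10:62300061-62300775). It fell without overlap (-1.48 ± 0.33 SE, adjusted p = 0.003), and the adjusted p was 0.0511 after thinning. At 62.4 kb Hk1 rose in iTreg by 1.06 (adjusted p = 0.019), a call lost without iTreg vehicle animal 2 (adjusted p = 0.103) or iTreg DFMO animal 2 (0.109), and after thinning (0.255). Gapdh, the enzyme of the first energy-yielding step, had 84.2, 63.9 and 62.5 CPM at its start (chr6:125165245-125165972) in Th17n vehicle and 81.9, 77.5 and 68.4 CPM in Th17n DFMO. The iTreg values were 85.9, 73.9 and 88.5 CPM and 74.5, 96.3 and 83.2 CPM, and the groups overlapped in both lineages. A smaller Gapdh peak at -0.718 kb (chr6:125166303-125166679) had 21.0, 16.6 and 17.2 CPM in iTreg vehicle and 4.11, 7.12 and 6.74 CPM in iTreg DFMO, without overlap (-1.52 ± 0.34 SE, adjusted p = 0.0031). It also fell in Th17n, with a log2 change of -1.04 (adjusted p = 0.0303), a call lost without Th17n vehicle animal 1 (adjusted p = 0.0626), Th17n vehicle animal 2 (0.077), Th17n vehicle animal 3 (0.0622), Th17n DFMO animal 1 (0.127) or Th17n DFMO animal 3 (0.154), and after thinning (0.085). The stronger of the 2 Gapdh peaks thus passed in neither lineage.

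Ldha, which makes lactate from pyruvate, had 34.3, 33.6 and 37.0 CPM at its stronger start peak (chr7:46845407-46846474) in Th17n vehicle and 45.8, 44.1 and 39.1 CPM in Th17n DFMO. In iTreg this peak had 54.2, 49.2 and 48.9 CPM with vehicle and 48.7, 62.6 and 42.2 CPM with DFMO. Neither lineage passed (0.33 ± 0.18 SE, adjusted p = 0.268 in Th17n and 0.03 ± 0.17 SE, adjusted p = 0.947 in iTreg). The Th17n values did not overlap and the iTreg values did. Inside the gene at 8.7 kb (chr7:46855321-46856243), Ldha had 25.5, 18.2 and 21.4 CPM in Th17n vehicle and 7.80, 6.92 and 9.12 CPM in Th17n DFMO. It fell without overlap (-1.39 ± 0.35 SE, adjusted p = 0.00816), and iTreg had 10.7, 4.94 and 7.28 CPM and 4.11, 9.96 and 4.40 CPM there (-0.23 ± 0.39 SE, adjusted p = 0.78). Pfkp, a phosphofructokinase that commits sugar to glycolysis, changed by -0.57 in iTreg at 15.1 kb (adjusted p = 0.0422). That call was lost without Th17n vehicle animal 2 (adjusted p = 0.0577), Th17n vehicle animal 3 (0.0588), Th17n DFMO animal 1 (0.0555), Th17n DFMO animal 2 (0.0555), iTreg vehicle animal 1 (0.0715), iTreg vehicle animal 2 (0.167), iTreg vehicle animal 3 (0.0543), iTreg DFMO animal 1 (0.189) or iTreg DFMO animal 3 (0.126), with DESeq2 (0.0578), after thinning (0.378) and in a fit of the 6 iTreg libraries (0.073). The start peaks of Gpi1, Pfkl, Aldoa, Aldoc, Tpi1, Pgk1, Pgam1, Eno1 and Pkm, which serve the other steps from glucose 6-phosphate to pyruvate, did not pass in either lineage. Their log2 changes in Th17n ran from -0.93 at the weaker Pgk1 peak to 0.41 at Pgam1, and in iTreg from -0.60 to 0.38 at the same 2 peaks. The start peaks of Hk1 and Pfkp nearest a start did not pass either (0.01 and -0.03 in Th17n, 0.15 and 0.15 in iTreg). A p above the threshold at these peaks does not show that they were equal.

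The kinases that set the flow through glycolysis, Pfkfb3, Pfkfb4 and Pdk1, had 18 tested peaks, of which 1 fell and 1 rose in Th17n (5.56% each, against 4.28% and 4.50% of all tested peaks). In iTreg 1 fell (5.56%, against 4.72%) and 4 rose (22.2%, against 3.84%). Fits that left out 1 library gave 1 to 4 higher and 0 to 1 lower peaks in iTreg, with 1 higher without Th17n vehicle animal 2, Th17n vehicle animal 3, iTreg vehicle animal 2 or iTreg DFMO animal 3. In Th17n it gave 0 to 1 higher and 1 lower. Pfkfb3 makes the activator of phosphofructokinase, a doubly phosphorylated fructose. Its peak at 60.1 kb, beyond the far end of the gene (chr2:11441827-11442240), had 0.511, 1.94 and 0 CPM in iTreg vehicle and 5.87, 4.27 and 7.33 CPM in iTreg DFMO. In Th17n it had 7.84, 7.24 and 10.9 CPM with vehicle and 22.7, 19.5 and 20.8 CPM with DFMO. It rose without overlap in both lineages (2.75 ± 0.57 SE, adjusted p = 0.0012 in iTreg and 1.30 ± 0.38 SE, adjusted p = 0.022 in Th17n). The Pfkfb3 peak inside the gene at 13.3 kb (chr2:11540453-11540871) had 36.2, 18.8 and 13.5 CPM in Th17n vehicle and 6.82, 3.46 and 5.21 CPM in Th17n DFMO, without overlap (-1.98 ± 0.45 SE, adjusted p = 0.00299). The Pfkfb3 start peak at 0.578 kb (chr2:11500782-11502242) fell in iTreg with a log2 change of -0.65 (adjusted p = 0.00625), and 2 other start peaks of the gene did not pass. Pfkfb3 at 60.1 kb lost its Th17n call without Th17n vehicle animal 1 (adjusted p = 0.0661), Th17n vehicle animal 2 (0.163), Th17n vehicle animal 3 (0.0585), Th17n DFMO animal 1 (0.128), Th17n DFMO animal 2 (0.057) or Th17n DFMO animal 3 (0.0641), and after thinning had an adjusted p of 0.0819 in iTreg. The start call was lost without iTreg DFMO animal 3 (adjusted p = 0.0771), and after thinning (0.0677).

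Pdk1, which shuts pyruvate out of the mitochondrial citric acid cycle by inhibiting pyruvate dehydrogenase, had 90.1, 76.2 and 84.0 CPM at its start (chr2:71872735-71874065) in Th17n vehicle and 87.1, 74.4 and 86.6 CPM in Th17n DFMO. The iTreg values were 115, 101 and 79.2 CPM and 85.1, 84.5 and 102 CPM. Vehicle and DFMO overlapped in both (0.03 ± 0.14 SE, adjusted p = 0.926 and -0.07 ± 0.14 SE, adjusted p = 0.818). Outside the gene, Pdk1 rose in iTreg by 1.98 at 30.3 kb (adjusted p = 0.0423) and by 0.67 at 66.6 kb (0.048). Pfkfb4, a relative of Pfkfb3, did not pass at its start (0.06 in Th17n and -0.17 in iTreg) and rose in iTreg by 1.58 inside the gene at 31.3 kb (0.0398). These 3 calls were lost under many settings. Pdk1 at 30.3 kb was lost without Th17n vehicle animal 2 (adjusted p = 0.0541), Th17n vehicle animal 3 (0.0539), iTreg vehicle animal 1 (0.0843), iTreg vehicle animal 2 (0.183), iTreg DFMO animal 1 (0.115) or iTreg DFMO animal 3 (0.119), and after thinning (0.0988). Pdk1 at 66.6 kb was lost without Th17n vehicle animal 2 (adjusted p = 0.0607), Th17n vehicle animal 3 (0.0641), Th17n DFMO animal 1 (0.0605), Th17n DFMO animal 2 (0.0591), Th17n DFMO animal 3 (0.0537), iTreg vehicle animal 2 (0.131), iTreg vehicle animal 3 (0.358), iTreg DFMO animal 1 (0.0679) or iTreg DFMO animal 3 (0.319), and in 5 of the other settings, with adjusted p of 0.0532 without the filter on low counts, 0.0559 without TMM, 0.0594 with DESeq2, 0.0677 in the 6 iTreg libraries and 0.105 after thinning. Pfkfb4 was lost without Th17n vehicle animal 2 (adjusted p = 0.0511), Th17n vehicle animal 3 (0.0519), iTreg vehicle animal 1 (0.069), iTreg vehicle animal 2 (0.051), iTreg vehicle animal 3 (0.176) or iTreg DFMO animal 3 (0.404), and with the animal as a block (0.0514).

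Genes around these members were read from 4 further lists of regulators and targets. HIF regulators and partners (14 genes, 55 tested peaks) had 7 higher and 2 lower peaks in Th17n (12.7% and 3.64%), and 5 higher and 4 lower in iTreg (9.09% and 7.27%). Of all tested peaks, 4.50% were higher and 4.28% lower in Th17n, and 3.84% and 4.72% in iTreg. Other known HIF targets (24 genes with a peak, 90 tested peaks) had 4 higher and 18 lower in Th17n (4.44% and 20.0%), and 4 higher and 13 lower in iTreg (4.44% and 14.4%). Further genes of glycolysis, pyruvate and pentose phosphate metabolism (37 genes, 72 tested peaks) had 2 higher and 2 lower in Th17n (2.78% each), and 2 higher and 3 lower in iTreg (2.78% and 4.17%). Growth regulators such as Myc, Mtor and Irf4 (14 genes, 54 tested peaks) had 1 higher and 2 lower in Th17n (1.85% and 3.70%), and 4 higher and 2 lower in iTreg (7.41% and 3.70%). Leaving out each library in turn gave 2 to 7 higher peaks in Th17n at the HIF regulators and partners. At the other known HIF targets it gave 11 to 19 lower in Th17n and 5 to 16 lower in iTreg, with 11 without Th17n DFMO animal 3 and 5 without iTreg DFMO animal 3. At the growth regulators it gave 1 to 4 higher in iTreg.

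Among them, Arnt, the partner of HIF-1alpha, had a start peak that fell in iTreg from 68.3 ± 1.58 CPM (SD, n = 3) with vehicle to 38.0 ± 3.35 CPM with DFMO (log2 change -0.82 ± 0.16 SE, adjusted p = 0.000797). In Th17n a low Arnt peak inside the gene rose, from 1.28 ± 0.262 CPM to 9.68 ± 0.138 CPM (2.81 ± 0.55 SE, adjusted p = 0.000679), and was too low to test after thinning. Several rises of this list in Th17n lay at Arnt2 (2.16, adjusted p = 0.0134, 1.97, 0.0181, and 2.37, 0.0257). The first was lost without Th17n vehicle animal 2 (adjusted p = 0.151), Th17n vehicle animal 3 (0.0756), Th17n DFMO animal 1 (0.0951) or Th17n DFMO animal 3 (0.0619). After thinning it was too low to test. Epas1, which encodes the related subunit HIF-2alpha, rose inside the gene in iTreg from 4.74 ± 2.12 CPM to 16.4 ± 4.12 CPM (1.92 ± 0.36 SE, adjusted p = 0.000397). Other Epas1 peaks fell in iTreg, 2 outside the gene (-1.33, adjusted p = 0.00858, and -1.23, 0.0312) and 1 at the gene end (-0.59, 0.0358), and 1 outside fell in Th17n (-1.12, 0.0246). Siah2, a ubiquitin ligase that acts on the HIF hydroxylases, had a peak inside the gene at 0.0979 ± 0.170 CPM in Th17n vehicle and 4.37 ± 3.53 CPM in Th17n DFMO (adjusted p = 0.00154). In iTreg it had 1.36 ± 1.56 CPM with vehicle and 11.6 ± 7.27 CPM with DFMO (adjusted p = 0.000533, and 0.0685 with DESeq2), and it was too low to test after thinning. Another Siah2 peak, outside the gene, rose in iTreg (1.95, adjusted p = 0.00662), and the one at the gene end fell in Th17n (-0.49, 0.0295). The start of Pgm1, a phosphoglucomutase, fell in Th17n from 81.5 ± 0.518 CPM to 36.6 ± 15.2 CPM (-1.13 ± 0.19 SE, adjusted p = 6.34e-05). In iTreg the same peak had 67.2 ± 15.1 CPM with vehicle and 35.1 ± 4.42 CPM with DFMO (-0.87 ± 0.19 SE, adjusted p = 0.00192). Peaks near Rassf7 in iTreg (-1.65 ± 0.17 SE, adjusted p = 1.05e-08), inside Mxi1 in iTreg (-2.03 ± 0.39 SE, adjusted p = 0.000451), near Cited2 in Th17n (-2.64 ± 0.51 SE, adjusted p = 0.000504), inside Zfp395 in Th17n (-0.92 ± 0.18 SE, adjusted p = 0.000504) and near Pdp1 in Th17n (-2.04 ± 0.22 SE, adjusted p = 1.6e-08) fell as well. The Rassf7 peak fell in Th17n too (-0.63, adjusted p = 0.0115). Inside Mxi1 the same peak fell in Th17n (-1.27, adjusted p = 0.00853) and another fell in iTreg (-0.57, 0.00949). Outside Mxi1, 2 peaks rose in Th17n (1.15, adjusted p = 0.00158, and 1.24, 0.00716), the second of them also in iTreg (1.03, 0.0192). At Cited2 another peak outside the gene fell in iTreg (-1.57, adjusted p = 0.00614) and the start rose there (0.36, 0.0325). The Zfp395 peak inside the gene also fell in iTreg (-0.67, adjusted p = 0.0063), and a peak outside Zfp395 rose in Th17n (0.71, 0.0445). Cited2 encodes a protein that competes with HIF-1alpha for its coactivators, and Pdp1 a phosphatase that reactivates pyruvate dehydrogenase. Irf4, a transcription factor needed by Th17 cells, fell inside the gene in Th17n from 62.3 ± 9.40 CPM to 28.5 ± 8.28 CPM (-1.10 ± 0.22 SE, adjusted p = 0.000761), and its start fell in iTreg (-0.46, adjusted p = 0.0408). The Irf4 start call was lost without iTreg DFMO animal 1 (adjusted p = 0.262), iTreg DFMO animal 3 (0.208), iTreg vehicle animal 3 (0.125) or several other single libraries. It was also lost with DESeq2 (0.069), without the filter on low counts (0.0508), after thinning (0.42) and in the 6 iTreg libraries (0.0692). Rptor, a subunit of the growth kinase complex mTORC1, rose inside the gene in iTreg from 30.0 ± 3.53 CPM to 52.8 ± 10.1 CPM (0.83 ± 0.19 SE, adjusted p = 0.00418). Inside Rptor another peak rose in iTreg (0.65, adjusted p = 0.0416) and 1 fell (-0.62, 0.0258).

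The lineages themselves differed at many of these peaks. In vehicle, 38 of 141 were higher in Th17n and 29 lower, 27.0% and 20.6%, where 25.2% of all tested peaks were higher and 19.3% lower, so these shares lay near the background. In DFMO 30 were higher and 17 lower, 21.3% and 12.1%, where 22.5% of all were higher and 14.7% lower. The number of lower peaks in vehicle was 19 without Th17n vehicle animal 3. Of all tested peaks, 5306 were lower in that fit, against 8456 with all libraries. In vehicle, 17 of the 36 start peaks were lower in Th17n and 0 higher, 47.2%, where 34.4% of all start peaks were lower and 2.17% higher. In DFMO 7 start peaks were lower and 2 higher, 19.4% and 5.56%, where 27.1% and 2.29% of all were. Among the oxygen-sensing genes, 14 of 26 tested peaks were higher in Th17n vehicle and 1 lower (53.8% and 3.85%, median log2 difference 0.81). The shares of all tested peaks were 25.2% and 19.3%. In DFMO 9 were higher and 1 lower (34.6% and 3.85%, median 0.60), against 22.5% and 14.7% of all. Of the 14 in vehicle, Hif1a had 8 and Egln3 had 6, all away from the starts, and the 1 lower peak was the Hif1a start. Peaks of all genes also differed by place in vehicle. Of those tested, 35.8% inside gene models and 29.9% outside were higher in Th17n, and 34.4% of start peaks were lower. The 2 lineage comparisons and the DFMO comparisons share libraries, so their values are given side by side and are not separate evidence.

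In vehicle, the smallest adjusted p of the higher peaks was that of Egln3 at 26.4 kb, whose values are given above, with a log2 difference between Th17n and iTreg of 2.80 ± 0.25 SE, adjusted p = 8.59e-13. The peak outside Bnip3l followed (4.66 ± 0.52 SE, adjusted p = 4.58e-10), then that 48.2 kb outside Ndrg1 (3.76 ± 0.43 SE, adjusted p = 7.72e-10). Hk1 at 16.6 kb (chr10:62323706-62324034) had 31.3, 18.9 and 25.6 CPM in Th17n vehicle and 5.11, 3.44 and 2.83 CPM in iTreg vehicle. With DFMO it had 18.2, 29.0 and 28.0 CPM in Th17n and 4.11, 6.17 and 3.22 CPM in iTreg. The lineages did not overlap in either condition (2.68 ± 0.34 SE, adjusted p = 1.17e-08 in vehicle and 2.42 ± 0.36 SE, adjusted p = 5.04e-07 in DFMO). Hk1 at 40.0 kb had 2.56, 4.94 and 5.66 CPM in iTreg vehicle, below the Th17n values given above (2.51 ± 0.34 SE, adjusted p = 6.6e-08). Pdk1 at 30.3 kb (chr2:71904902-71905409) had 9.79, 11.2 and 14.4 CPM in Th17n vehicle and 0, 0.430 and 1.42 CPM in iTreg vehicle (3.85 ± 0.53 SE, adjusted p = 7.91e-08). Pfkfb3 at 13.3 kb had 2.56, 1.72 and 1.62 CPM in iTreg vehicle (3.42 ± 0.48 SE, adjusted p = 1.26e-07). Pfkfb4 at 31.3 kb (chr9:109022988-109023478) had 18.6, 11.2 and 12.9 CPM in Th17n vehicle and 1.02, 2.15 and 1.21 CPM in iTreg vehicle (3.03 ± 0.45 SE, adjusted p = 3.33e-07). None of these pairs of groups overlapped. In the other direction, Vegfa at -13.5 kb was lower in Th17n (-3.76 ± 0.48 SE, adjusted p = 1.01e-08), as was P4ha2 at 26.3 kb, where iTreg vehicle had 12.3, 17.2 and 19.2 CPM (-2.33 ± 0.35 SE, adjusted p = 5.61e-07). Of these 10 peaks, 9 passed in every alternative setting, and the Bnip3l peak was too low to test after thinning.

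In DFMO, the 10 peaks with the smallest adjusted p passed in every setting. Hif1a at -19.6 kb came first, with all Th17n DFMO values above all iTreg DFMO values (1.67 ± 0.19 SE, adjusted p = 2.32e-09), and Hif1a at -31.0 kb was also higher (2.43 ± 0.42 SE, adjusted p = 8.48e-06). Egln3 at 26.4 kb remained higher in Th17n (1.82 ± 0.30 SE, adjusted p = 4.65e-06). Pfkfb3 at 72.2 kb (chr2:11429618-11430120) had 49.4, 58.9 and 50.8 CPM in Th17n DFMO and 17.0, 26.6 and 21.7 CPM in iTreg DFMO, without overlap (1.21 ± 0.20 SE, adjusted p = 6.28e-06). Slc16a1 at -22.3 kb (chr3:104616102-104616655) had 62.1, 57.5 and 53.4 CPM and 26.4, 34.6 and 19.3 CPM (1.08 ± 0.20 SE, adjusted p = 1.9e-05). Pfkp at -3.96 kb (chr13:6652567-6652886) had 16.2, 16.0 and 19.5 CPM and 1.17, 7.12 and 4.40 CPM (1.89 ± 0.41 SE, adjusted p = 0.000235). Both of these were higher in every Th17n library. Hk2 differed in opposite directions at 2 peaks inside the gene. At 4.59 kb (chr6:82769728-82769995) Hk2 had 16.6, 16.4 and 18.9 CPM in Th17n DFMO and 4.70, 7.12 and 3.52 CPM in iTreg DFMO (1.72 ± 0.38 SE, adjusted p = 0.000342). At 29.7 kb Th17n was lower, at the values given above (-1.20 ± 0.22 SE, adjusted p = 3.17e-05). The start of Pkm, the pyruvate kinase gene (chr9:59656002-59657031), had 99.8, 79.2 and 82.0 CPM in Th17n DFMO and 117, 140.0 and 121 CPM in iTreg DFMO (-0.59 ± 0.13 SE, adjusted p = 0.000346). In vehicle it had 92.1, 88.7 and 76.3 CPM in Th17n and 141, 119.7 and 114 CPM in iTreg (-0.61 ± 0.13 SE, adjusted p = 0.000111), and in each condition every Th17n library was lower. The order of the lineages at the Slc16a3 start changed with DFMO. This peak was lower in Th17n with vehicle (-0.67 ± 0.22 SE, adjusted p = 0.0119) and higher with DFMO (0.79 ± 0.26 SE, adjusted p = 0.0158). The peak inside the gene had a lineage difference of -0.28 ± 0.20 SE, adjusted p = 0.261, in vehicle and 0.67 ± 0.23 SE, adjusted p = 0.0197, in DFMO, and the difference between the DFMO effects did not pass there (0.94 ± 0.30 SE, adjusted p = 0.105).

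Whether DFMO acted differently in the 2 lineages was tested for each peak as the change in Th17n minus that in iTreg. The difference was positive at 4 of 141 peaks and negative at 3, 2.84% and 2.13%, where 0.835% of all tested peaks were positive and 0.478% negative. The positive peaks lay at Vegfa, P4ha2, Pfkp and the Slc16a3 start, and the negative ones at Bnip3l, Ndrg1 and P4ha2. At the Bnip3l and Ndrg1 peaks iTreg vehicle was already low, so a fall as in Th17n could not have shown in iTreg. The number of positive peaks was 2 without Th17n vehicle animal 1, Th17n vehicle animal 2, Th17n DFMO animal 2, Th17n DFMO animal 3, iTreg vehicle animal 2 or iTreg DFMO animal 1. It was 1 without Th17n DFMO animal 1 or iTreg DFMO animal 3, 0 without Th17n vehicle animal 3, and 7 without iTreg DFMO animal 2. That of negative peaks was 1 without iTreg DFMO animal 3. Over all tested peaks, positive differences numbered 108 without Th17n vehicle animal 3 and 947 without iTreg DFMO animal 2, against 365 with all libraries. Negative differences over all tested peaks numbered 128 without iTreg DFMO animal 3, against 209.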

How the data were processed

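The authors deposited raw ATAC-seq counts in 48443 peaks for 12 libraries (4 groups, 3 animals each), and these counts were used here. The submitters' processing notes name mm10, Trimmomatic, FastQC, Bowtie2 and MACS2. Versions, order and settings, how peaks were merged and whether cut sites were shifted are not stated in the sources read here. Each peak was assigned to the nearest RefSeq protein-coding gene model within 100 kb (46093 peaks, 14536 of 21900 genes), and no genome sequence was used for the peaks.

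The counts were tested with edgeR 4.0.16 (R 4.3.3, quasi-likelihood, TMM factors, filterByExpr with a minimum count of 10, 1 term per group, all 12 libraries), with Benjamini-Hochberg adjustment over 43726 peaks and a threshold of 0.05. The SE is the log2 change divided by the square root of the F statistic. CPM are counts per 1000000 counts of the library. Totals of 1020937 to 6496550 counts limit the precision at low peaks, most of all in the shallowest library. The script was tested on simulated data. DESeq2 1.42.0, library totals without TMM, no filter, thinning to the lowest total, fits of only the libraries compared, a 10 kb window and leaving out each library were the alternatives.

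The labels give the same 3 animal identifiers in every group. The main fit had no term for the animal, and libraries were paired by these identifiers only in the following check and in the block fit. Deviations from group means correlated between libraries of the same animal with r from -0.0538 to 0.0756 over 18 pairs, and 7 of 12 libraries correlated best with their own animal. A fit with the animal as a block was an alternative. The members, lists and tests were chosen with earlier results of these data known. Given in full were the 12 called peaks with the smallest p in each DFMO comparison, the 10 with the smallest p in each lineage comparison, all interaction calls, and a start peak of Hif1a, Vegfa, Ndrg1, Egln3, Slc2a1, Slc2a3, Hk2, Ldha, Pdk1, Slc16a3 and Gapdh. Other calls are given by their change. From each further list, genes were chosen by the smallest p. Some marker genes of the lists are not reported here.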

Additional observations from a re-analysis of the deposited data

Results flagged for a closer look

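At 7 peaks the effect of DFMO differed between Th17n and iTreg by an interaction test (edgeR, adjusted over 43726 peaks, n = 3 animals per group). The difference is the log2 change with DFMO in Th17n minus that in iTreg. At Bnip3l, 7.67 kb outside the gene, it was -4.34 ± 0.85 SE, adjusted p = 0.00386, from a change of -2.92 in Th17n and 1.42 in iTreg, and it held without any single library. At Ndrg1, 48.2 kb outside the gene, it was -3.47 ± 0.79 SE, adjusted p = 0.0142 (-3.27 and 0.20), and was lost without Th17n vehicle animal 2 (adjusted p = 0.0509) or iTreg DFMO animal 3 (0.0787). The Bnip3l and Ndrg1 peaks were already low in iTreg vehicle, at the values given above. A fall of the size seen in Th17n could therefore not have shown in iTreg at either peak. At P4ha2, the peak at 69.0 kb had 3.35 ± 0.73 SE, adjusted p = 0.00932 (2.71 and -0.63), lost without Th17n vehicle animal 3 (adjusted p = 0.0654). The P4ha2 peak at 55.1 kb had -1.37 ± 0.37 SE, adjusted p = 0.0451 (-0.47 and 0.90), lost without Th17n vehicle animal 3 (adjusted p = 0.223), Th17n DFMO animal 1 (0.0671), Th17n DFMO animal 2 (0.0739), Th17n DFMO animal 3 (0.0897), iTreg vehicle animal 2 (0.137), iTreg vehicle animal 3 (0.107), iTreg DFMO animal 1 (0.0725) or iTreg DFMO animal 3 (0.0679).

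The Slc16a3 start had 1.46 ± 0.35 SE, adjusted p = 0.0183 (-0.09 and -1.55), lost without Th17n vehicle animal 2 (adjusted p = 0.0897), Th17n vehicle animal 3 (0.0592), Th17n DFMO animal 1 (0.0622), Th17n DFMO animal 3 (0.0506), iTreg vehicle animal 2 (0.0547), iTreg vehicle animal 3 (0.0546) or iTreg DFMO animal 3 (0.081). Vegfa at -13.5 kb had 2.49 ± 0.64 SE, adjusted p = 0.0315 (2.65 and 0.15), lost without Th17n vehicle animal 1 (adjusted p = 0.0761), Th17n vehicle animal 3 (0.167), Th17n DFMO animal 1 (0.0576), Th17n DFMO animal 2 (0.0854), Th17n DFMO animal 3 (0.0831), iTreg vehicle animal 1 (0.0549), iTreg DFMO animal 1 (0.0732) or iTreg DFMO animal 3 (0.0685). Pfkp at 15.1 kb had 0.99 ± 0.26 SE, adjusted p = 0.0351 (0.42 and -0.57), lost without Th17n vehicle animal 1 (adjusted p = 0.0876), Th17n vehicle animal 2 (0.0744), Th17n vehicle animal 3 (0.158), Th17n DFMO animal 1 (0.191), Th17n DFMO animal 2 (0.109), iTreg vehicle animal 2 (0.103), iTreg DFMO animal 1 (0.134) or iTreg DFMO animal 3 (0.0985), and without the filter on low counts (0.0518). After thinning, none of the 7 kept its call: the adjusted p was 0.0901 at Ndrg1, 0.119 at Vegfa, 0.143 at the P4ha2 peak at 55.1 kb, 0.223 at Slc16a3 and 0.247 at Pfkp, and the other two were too low to test.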

How the results depend on the processing

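No log2 difference that was followed changed sign under any of the settings run. After thinning to the lowest total, member peaks called with DFMO numbered 3 higher and 8 lower in Th17n and 2 higher and 9 lower in iTreg. The lineage counts were then 25 higher and 13 lower in vehicle and 9 lower in DFMO, and the difference between the lineages' DFMO effects passed at 0 positive and 1 negative peaks. Thinning also lowers the number of peaks tested, to 30115 in all. Of these, 871 were higher and 974 lower with DFMO in Th17n, and 704 higher and 709 lower in iTreg. Unthinned, all-peak calls were 1968 and 1873 in Th17n, and 1677 and 2065 in iTreg. Thinned lineage calls over all tested peaks were 6430 higher and 3449 lower in vehicle and 3148 lower in DFMO. Differences between the DFMO effects passed at 114 positive and 81 negative peaks. Restricted to peaks within 10 kb of a gene, the counts were 2 higher in Th17n, 5 higher in iTreg, 24 higher in the vehicle lineage comparison, and 2 positive and 1 negative for the difference, from 111 peaks. Lower counts with DFMO and the shares of all peaks in this window are not given here. The balance of falls and rises within it is therefore not shown. Leaving out each library in turn gave 2 to 6 higher and 11 to 21 lower in Th17n, and 2 to 9 higher and 10 to 21 lower in iTreg. It gave 31 to 41 higher and 19 to 34 lower between lineages in vehicle, 22 to 33 and 15 to 20 in DFMO, and 0 to 7 positive and 1 to 4 negative differences. Calls over all tested peaks moved in these fits as well. With DFMO they numbered 728 to 2323 higher and 909 to 2438 lower in Th17n. In iTreg they numbered 621 to 1791 higher and 778 to 2601 lower. Differences between the lineages' DFMO effects numbered 108 to 947 positive and 84 to 423 negative. The replicate block, which pairs libraries by animal, ended the Egln3 call at 5.33 kb in Th17n (adjusted p = 0.0669) and the Pfkfb4 call in iTreg (0.0514) and no other call followed. Calls that passed in every setting were 1 of 5 higher and 5 of 17 lower in Th17n, and 0 of 9 higher and 9 of 17 lower in iTreg. Low peaks are limited by the total of the shallowest library.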
